A study of Mus musculus with 2 samples.

Results

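Intraflagellar transport (IFT) genes and the genes of the ciliary motors were followed in single cells of mouse gastruloids, a culture model in which embryonic stem cells aggregate and begin to lay down a body axis. The 33 genes were taken by symbol from a fixed list, out of 32285 genes in the count tables. They comprise 17 genes of the IFT-B complex (11 of its core and 6 of its peripheral part), 6 genes of IFT-A, 5 genes of kinesin-2 and 5 genes of dynein-2. The title of the series concerns Sp5 and Sp8 and the formation of primary cilia, so the question put to these genes was whether they differed between the genotypes and between the cell states of the aggregates.

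There were 2 libraries, 1 per genotype, and both groups came from the R1 mouse embryonic stem cell line. One group carried the genotype label WT and the other Double Mutant Sp5/8, meaning mutation of the genes for the related zinc-finger transcription factors Sp5 and Sp8. In both groups about 300 cells were aggregated in serum-free N2B27 medium, and the aggregates received 3 µM CHIR, an inhibitor of GSK3 that turns on Wnt signalling, from day 2. They were pooled and dissociated 12 h later, at day 2.5. The labels do not state how many mutant clones or separate cultures stand behind a library, and with 1 library per genotype no difference has a replicate check.

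The kept cells numbered 8707 in the library labelled WT and 10587 in the library labelled double mutant, with a median of 10571 and 8637 unique molecular identifiers (UMIs, tags that let each captured molecule be counted once). Their summed depth was nearly equal, at 97157331 and 97644169 UMIs, and 27 cell barcodes occurred in both libraries. Levels are counts scaled to a common library total (CPM), over all kept cells of a library, with exact Poisson 95% intervals. Ratios carry the exact interval of a ratio of 2 Poisson counts, and none of these intervals includes variation other than counting error. The counts of the targeted genes went against the labels. Sp5 was at 109.1 CPM in the library labelled WT and at 478.7 CPM in the library labelled double mutant, and Sp8 at 20.8 and 40.2 CPM. The labels do not give the changed part of either gene, and a 3′ tag outside that part would not check the genotype. Both libraries are therefore named by their labels throughout, and every direction given between them rests on those labels. The 5 feeder fibroblast markers summed to 6.72 and 6.35 CPM and the 6 markers of multiciliated cells to 4.39 and 2.97 CPM. The 7 extraembryonic endoderm markers summed to 121.7 and 102.6 CPM, and a cluster of 17 and 21 cells raised all 7 of them.

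Cilia are built and kept by trains of IFT particles that move along the axonemal microtubules. Kinesin-2 carries the trains from the base to the tip with cargo bound largely by IFT-B, and dynein-2 returns them to the base together with IFT-A, which also brings membrane receptors into the cilium. Primary cilia are found on most epiblast-derived cells of the early embryo, where they serve Hedgehog signalling, and they are taken down before mitosis.

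Promoters are shown for Wdr35, Ift140 and Ift27, among the genes on which the comparison of cell states below turns, and for Ift22. Ift22 holds the motif of the RFX factors, known regulators of ciliary genes. RefSeq promoter windows on GRCm38.p6, which run from 250 bases before to 50 bases after a gene's start, matched 28 of the 33 members by symbol and gave 29 windows. Ttc30b, Ift81, Ift80, Ift122 and Dync2li1 had no entry. Capitals mark the GC box GGGCGG, the class of site that Sp-family factors bind, and the X-box, searched as the letters GTNNCC and GNAAC set 2 to 4 bases apart. Both were sought on both strands, so that a GC box can read CCGCCC.
Wdr35 (chr12:8973751-8974050, plus strand): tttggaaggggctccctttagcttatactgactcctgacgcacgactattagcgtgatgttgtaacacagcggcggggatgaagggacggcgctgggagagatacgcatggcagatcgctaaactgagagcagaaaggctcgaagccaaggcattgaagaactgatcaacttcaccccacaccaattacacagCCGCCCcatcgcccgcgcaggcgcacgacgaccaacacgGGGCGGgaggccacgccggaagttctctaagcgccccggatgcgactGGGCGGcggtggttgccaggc
Ift140 (chr17:25015836-25016135, plus strand): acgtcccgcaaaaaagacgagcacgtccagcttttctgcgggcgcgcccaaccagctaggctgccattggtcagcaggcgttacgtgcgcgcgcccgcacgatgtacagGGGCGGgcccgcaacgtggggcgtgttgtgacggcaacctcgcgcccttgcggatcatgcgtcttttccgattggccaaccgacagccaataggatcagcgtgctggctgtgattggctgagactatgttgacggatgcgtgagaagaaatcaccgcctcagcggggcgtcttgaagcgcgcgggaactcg
Ift27 (chr15:78174032-78174331, minus strand): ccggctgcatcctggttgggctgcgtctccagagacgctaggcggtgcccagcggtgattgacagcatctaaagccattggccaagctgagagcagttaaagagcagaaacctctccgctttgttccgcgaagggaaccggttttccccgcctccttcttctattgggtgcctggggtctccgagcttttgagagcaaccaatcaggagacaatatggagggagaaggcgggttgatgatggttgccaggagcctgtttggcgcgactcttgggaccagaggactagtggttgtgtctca
Ift22 (chr5:136907900-136908199, plus strand): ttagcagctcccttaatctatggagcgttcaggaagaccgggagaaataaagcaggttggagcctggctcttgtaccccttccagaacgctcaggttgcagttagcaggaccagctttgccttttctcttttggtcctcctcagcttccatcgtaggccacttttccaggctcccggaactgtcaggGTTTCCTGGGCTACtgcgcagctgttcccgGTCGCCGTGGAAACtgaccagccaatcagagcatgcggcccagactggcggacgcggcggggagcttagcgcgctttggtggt
Wdr35 held 3 GC boxes, Ift140 held 1, Ift27 held neither motif, and Ift22 held 2 X-boxes. The window of Dync2h1, another gene called in the comparison of cell states, held neither motif and is not shown. A GC box was present in 18 of the 29 member windows (62.1%), against 35.7% of all 32851 windows and 66.3% of the 9624 windows of genes at 5 CPM or more in these cells. An X-box was present in 5 member windows (17.2%), those of Ift22, Ift57, Ift74, Ttc26 and Kif17, against 4.37% of all windows and 4.72% of the windows of genes at that level. The member windows include those of Ttc30a1, Ift172, Kif3c and Kif17, which were under 5 CPM and so are outside the set of genes at that level. A match describes letters in a window and not a bound site.

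Most members were at nearly the same level in both libraries. Of the 33 genes, 28 reached a mean of 5 CPM. Ttc30a1, Ift172 and Kif3c were between 3.5 and 4.89 CPM, Ttc30b was at 0.69 and 0.65 CPM, and Kif17, a kinesin-2 motor best known from neurons, had 11 and 17 UMIs in all. Ttc30a1, Ttc30b and Ttc30a2 are near-identical copies, so reads may have been divided between them and their counts are uncertain. Ift74, Ift81, Ift88, Cluap1, Ift57, Ift80, Ift140, Ttc21b and Kif3c overlap a gene on the other strand, and reads of the partners cannot be told apart where counting did not use strand. Among the 28 genes, 0 were higher in the library labelled double mutant by a log2 ratio of 0.25 or more, against 3.67% of all 9386 genes at that level. Lower by the same measure were 2, Ift80 and Wdr35, against 5.87% of all genes. With edgeR's TMM scaling the same 2 members were called, while over all genes the calls went from 344 higher and 551 lower to 477 higher and 405 lower. The median log2 ratio was -0.06 for the members and -0.02 for all genes at that level. In direction, 10 members were higher and 18 lower, and counting intervals lay wholly above 0 for 5 and wholly below 0 for 10. These are 64.3% lower, 17.9% with intervals above 0 and 35.7% with intervals below 0, near the 57.0%, 23.7% and 35.1% of all genes at that level. The standard deviation of the members' log2 ratios was 0.13, and that of the 8155 genes within the same range of levels was 0.16.

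**Figure D1:**
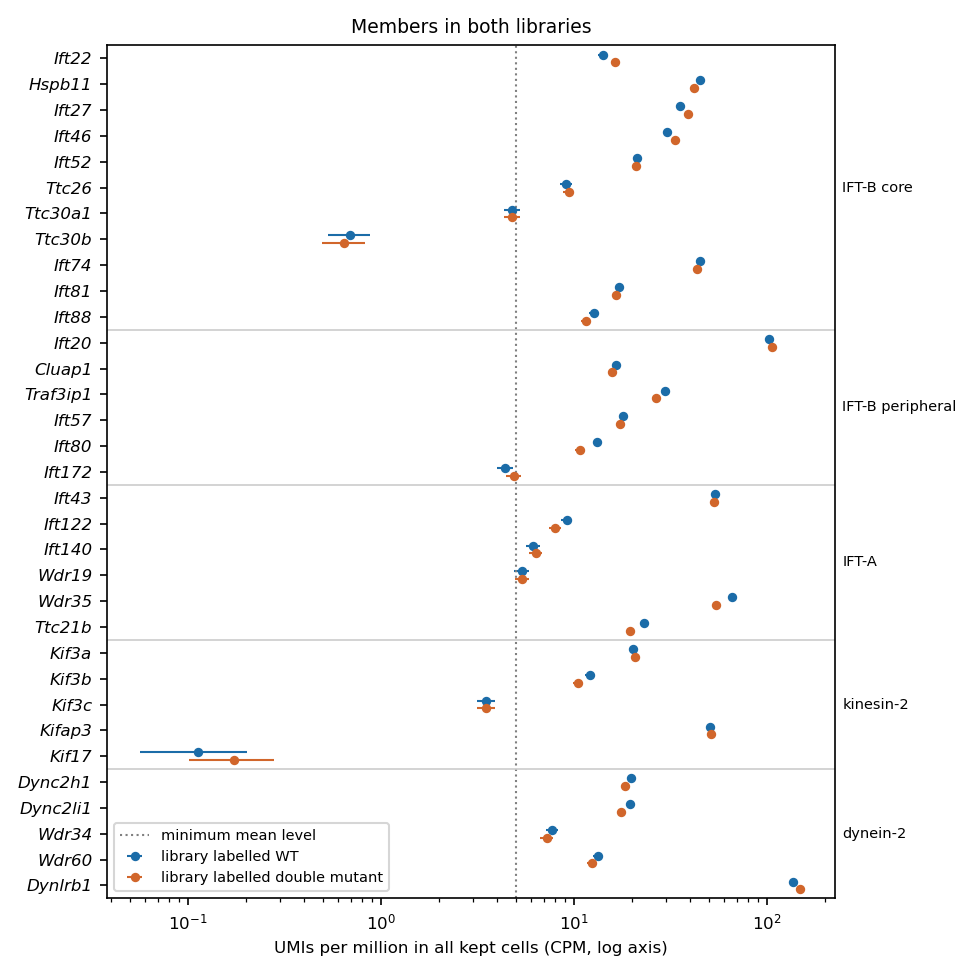
Level of each of the 33 members in the library labelled WT (blue) and the library labelled double mutant (orange), in CPM on a log axis, with exact Poisson 95% intervals, grouped by complex. The 2 points of most members nearly coincide, and the dotted line is the minimum mean level of 5 CPM, which 28 members reached.

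Within the IFT-B core, the stable heart of the anterograde particle, levels in CPM spread on both sides of equality. Ift22, a small Rab-like GTPase of the particle, was at 14.1 CPM in the library labelled WT and 16.4 in the library labelled double mutant, a log2 ratio of 0.21 (0.11 to 0.32). Ift27, the other Rab-like GTPase, was at 35.4 and 39.2 CPM (log2 0.15, 0.08 to 0.21), and Ift46 at 30.2 and 33.3 CPM (log2 0.14, 0.07 to 0.21). These 3 were the core genes whose intervals lay above 0. Ift88, the Polaris protein whose loss in mice removes nodal cilia, was on the other side, at 12.7 and 11.5 CPM (log2 -0.14, -0.25 to -0.02). Hspb11, also called Ift25 and the partner of Ift27, was at 44.9 and 42.1 CPM (log2 -0.09, -0.15 to -0.03). The tubulin-binding pair Ift74 and Ift81 had intervals that held 0, at 44.9 and 43.1 CPM and at 17.2 and 16.6 CPM. So did Ift52, at 21.1 and 20.9 CPM, and Ttc26, at 9.10 and 9.39 CPM.

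Ift80 stood out in the peripheral part of IFT-B, the genes of which encode proteins that join the core to motors and cargo. It lies on the minus strand of chromosome 3, at chr3:68892499-69004570 in GENCODE M21, and encodes a scaffold protein that is mutated in human skeletal ciliopathies. Its level was 13.2 CPM (12.5 to 14.0) in the library labelled WT and 10.8 CPM (10.1 to 11.5) in the library labelled double mutant. The intervals did not overlap, and the log2 ratio was -0.29 (-0.41 to -0.17). After each cell was thinned to 2500 UMIs, which left 264 and 290 UMIs of Ift80, the ratio was -0.15 (-0.39 to 0.10), an interval that held both 0 and the value from all UMIs. It was -0.10 in cells low for both cell cycle sets, and in cluster 3 by itself it was 0.16. Predicted genes overlap Ift80 on the same strand too, and their reads cannot be told apart from its own. Traf3ip1, which links the particle to tubulin and is also called Ift54, was at 29.8 and 26.5 CPM (log2 -0.17, -0.25 to -0.09). Ift20, the member that also works at the Golgi, was at 102.0 and 105.6 CPM (log2 0.05, 0.01 to 0.09). Cluap1, at 16.5 and 15.8 CPM, and Ift57, at 17.9 and 17.3 CPM, had intervals that held 0. All 17 IFT-B genes together came to 418.6 and 418.7 CPM, a log2 ratio of 0.00022 (-0.02 to 0.02).

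IFT-A was the complex with the lowest summed ratio. Its 6 genes came to 163.5 CPM in the library labelled WT and 146.8 CPM in the library labelled double mutant, a log2 ratio of -0.16 (-0.19 to -0.12), with 4 genes lower and 2 higher. Wdr35, which encodes IFT121 and is needed for membrane proteins to enter the cilium, lies at chr12:8973892-9028847 on the plus strand. It was at 65.8 CPM (64.2 to 67.5) and 54.2 CPM (52.7 to 55.7), with no overlap of the intervals and a log2 ratio of -0.28 (-0.33 to -0.23). The ratio of Wdr35 was -0.23 (-0.33 to -0.12) in cells thinned to 2500 UMIs, -0.16 in cluster 1 alone and -0.0076 in cluster 5 alone. Ttc21b, encoding IFT139, was at 23.0 and 19.6 CPM (log2 -0.23, -0.32 to -0.14). Ift122, a core IFT-A gene whose loss in mice turns Hedgehog signalling up, was at 9.17 and 8.00 CPM (log2 -0.20, -0.34 to -0.06). These 3 genes lay below 0 with their whole intervals. Ift43, at 54.0 and 53.3 CPM, Ift140, at 6.12 and 6.35 CPM, and Wdr19, at 5.35 and 5.38 CPM, had intervals that held 0. Without Wdr35, a sum added after the values were seen, the log2 ratio of IFT-A was -0.08 (-0.12 to -0.03).

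Kinesin-2 differed little as a whole. Its 5 genes summed to 86.7 and 86.5 CPM, a log2 ratio of -0.0031 (-0.05 to 0.04). Kif3a, the motor subunit shared by the heterotrimer, was at 20.1 and 20.8 CPM, and Kifap3, its non-motor subunit, at 50.9 and 51.6 CPM, both with intervals that held 0. Kif3b, the second motor subunit, was at 12.1 CPM (11.4 to 12.8) and 10.5 CPM (9.88 to 11.2), which did not overlap (log2 -0.20, -0.32 to -0.08).

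Dynein-2 had a summed ratio above 0 that came from 1 gene. The 5 genes summed to 196.3 and 204.3 CPM (log2 0.06, 0.03 to 0.09). Dynlrb1, a roadblock light chain that also belongs to cytoplasmic dynein-1, was at 136.0 CPM (133.7 to 138.4) and 148.9 CPM (146.5 to 151.3), without overlap (log2 0.13, 0.10 to 0.16). The other 4 were all lower in the library labelled double mutant, and without Dynlrb1 the summed log2 ratio was -0.12 (-0.17 to -0.07). Dync2h1, the motor heavy chain, was at 19.7 and 18.3 CPM (log2 -0.10, -0.20 to -0.01). Dync2li1, its light intermediate chain, was at 19.6 and 17.5 CPM (log2 -0.17, -0.26 to -0.07). The intermediate chains Wdr34, at 7.71 and 7.23 CPM, and Wdr60, at 13.3 and 12.4 CPM, had intervals that held 0.

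**Figure D2:**
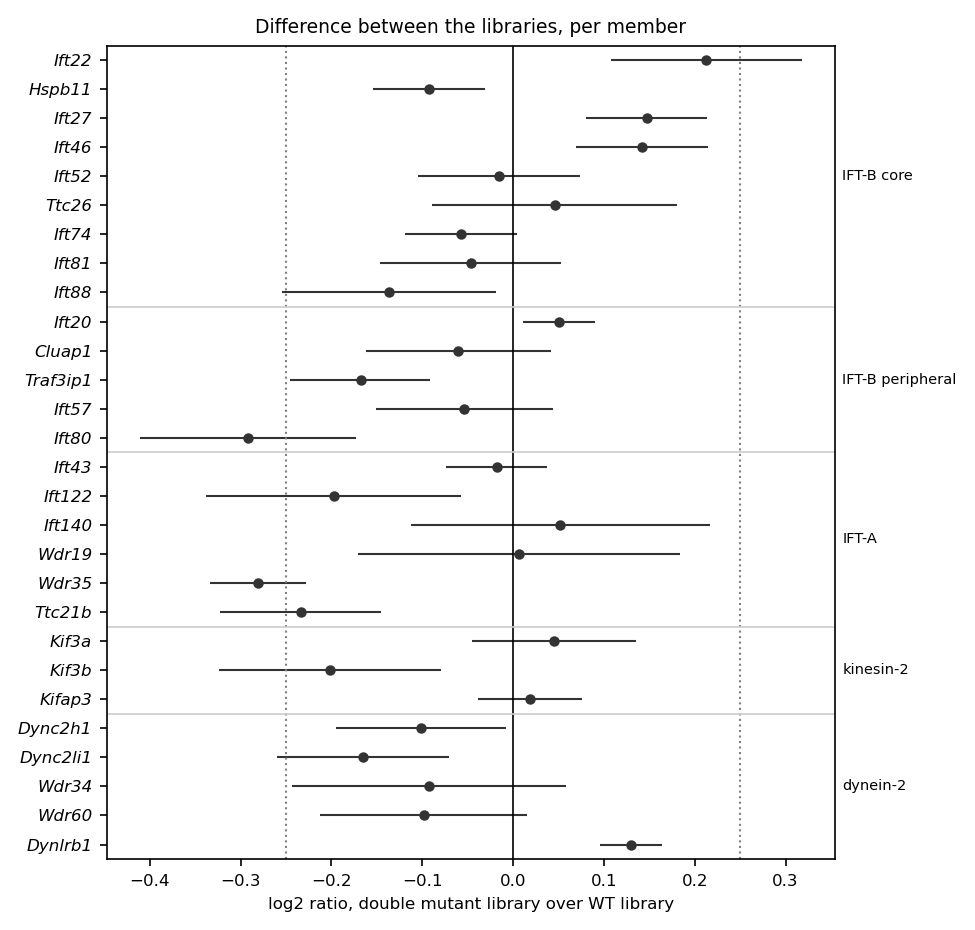
Log2 ratio of the library labelled double mutant over the library labelled WT for the 28 members at 5 CPM or more, with exact 95% counting intervals and dotted lines at a log2 ratio of 0.25 in either direction. Ift80 and Wdr35 are the 2 points past the lower line, and no point is past the upper one.

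The libraries also differed in their make-up of cells. Cells were clustered on variable genes from which all members, Sp5, Sp8 and the cell cycle genes had been left out. Cluster 0, called primitive-streak-like from Eomes, Fgf8 and Gsc among its leading genes, held 31.9% of the cells labelled WT and 55.0% of the cells labelled double mutant. The name is a loose one. Mixl1 and Evx1 of the streak list were also raised 1.5-fold, but T, Wnt3, Wnt3a, Lhx1 and Mesp1 were not. Of the primed epiblast list, Fgf5 and Otx2 were raised, and Fgf5 was among the leading genes. T, Lhx1 and Mesp1 were raised in cluster 2. Cluster 1 held 43.0% and 26.2%. It was led by Irx3, Gbx2 and Irx5 and raised 4 of the 7 neural markers (Sox1, Irx3, Irx5 and Foxb1). Sox3 of the primed epiblast list, Klf4 of the naive list and Nkx1-2 of the caudal list were raised too. Cluster 1 is called by its number because a separate cluster held further neural markers. When every cluster was given the same weight in both libraries, the members' median log2 ratio was 0.0021 in place of -0.06, and that of all genes was -0.02. The summed ratio of IFT-A was then -0.10, that of Wdr35 -0.21, and that of Ift80 -0.26. Within cluster 0 alone IFT-A was at -0.11, and within cluster 1 alone at -0.09. The part of the cluster shares in the ratios between libraries was not tested further. In aggregates sequenced once, fewer cells of a state and less RNA per cell in the other states both lower a library's level.

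Members were higher in cluster 1 than in cluster 0, in each library. In cluster 1 the 33 genes together were at 921.6 CPM in the library labelled WT, and in cluster 0 at 830.7 CPM, a log2 ratio of 0.15 (0.13 to 0.17). In the library labelled double mutant the sums were 932.5 and 830.4 CPM, a log2 ratio of 0.17 (0.14 to 0.19). Of the 28 members, 23 were higher in cluster 1 in the library labelled WT and 24 in the library labelled double mutant, where 54.6% and 54.7% of all genes were higher. Their median log2 ratios were 0.16 and 0.22, and those of all genes were 0.02 and 0.02. Intervals lay above 0 for 16 and 17 members, against 24.5% and 25.6% of all genes, and below 0 for none in this comparison, against 20.5% and 20.3%. The comparison was chosen after the values by cluster were seen. Higher by a log2 ratio of 0.25 or more in both libraries were 6 of 28, against 7.78% of all genes, and lower were 0, against 5.01% of all genes. Cluster 1 and cluster 0 had similar median depth (10639 and 11197 UMIs in the library labelled WT, 8610 and 8884 in the other), similar mitochondrial shares, and similar shares of G2/M-rich cells (29.2% and 29.4%, and 29.7% and 29.3%). They differed in cells low on chromosome 6 or 11, a measure set out further below. Low on chromosome 6 were 16.9% and 8.52%, and 21.3% and 12.2% in the library labelled double mutant. Low on chromosome 11 were 10.5% and 3.3%, and 3.75% and 2.28%.

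The 6 genes came from 3 of the complexes. Wdr35 was at 78.1 CPM in cluster 1 and 58.1 CPM in cluster 0 in the library labelled WT (log2 0.43, 0.35 to 0.51), and at 70.0 and 49.1 CPM in the library labelled double mutant (log2 0.51, 0.43 to 0.60). Both clusters were thus lower for Wdr35 in the library labelled double mutant, and cluster 1 was higher than cluster 0 in both. Ift140, the large IFT-A scaffold subunit, was at 7.23 and 4.98 CPM (log2 0.54) and at 7.39 and 5.81 CPM (log2 0.35). Ift27 was at 41.2 and 30.5 CPM (log2 0.44) and at 46.9 and 36.6 CPM (log2 0.36).
Ift81 was at 19.4 and 15.6 CPM and at 19.1 and 15.6 CPM, with log2 ratios of 0.31 and 0.29. For the dynein-2 heavy chain Dync2h1 the levels were 23.0 and 16.1 CPM (log2 0.52) and 22.0 and 16.7 CPM (log2 0.40). Dync2li1 was at 22.3 and 17.6 CPM and at 20.98 and 16.1 CPM, with log2 ratios of 0.34 and 0.38. The intervals of Wdr35, Ift27, Ift81, Ift140, Dync2h1 and Dync2li1 lay above 0 in both libraries.

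By complex, IFT-A was higher in cluster 1 than in cluster 0 for all 6 genes in both libraries, with summed log2 ratios of 0.29 (0.24 to 0.35) and 0.32 (0.27 to 0.37). Without Wdr35 they were 0.20 and 0.20. Dynein-2 was at 0.08 (0.03 to 0.12) and 0.13 (0.08 to 0.17), and at 0.31 and 0.34 without Dynlrb1. IFT-B was at 0.13 and 0.14, and at 0.18 and 0.20 without Ift20. Its core was at 0.21 and 0.21. Its peripheral part was at 0.03 (-0.01 to 0.08) and 0.04 (-0.01 to 0.09), with 3 of 5 genes higher in each library. Ift20 and Dynlrb1, the members with most UMIs, did not share the difference. Ift20 was at 105.2 and 106.2 CPM in the library labelled WT and at 104.9 and 108.8 CPM in the other, and Dynlrb1 at 133.4 and 136.1 CPM and at 149.9 and 145.7 CPM, with all 4 intervals of their ratios holding 0. Kinesin-2 had summed log2 ratios of 0.13 (0.06 to 0.20) and 0.14 (0.07 to 0.21). In thinned cells the sum of IFT-A was at 0.25 and 0.39 and that of IFT-B at 0.15 and 0.21, with intervals above 0. Dynein-2 was then at -0.04 (-0.14 to 0.07) and 0.06 (-0.03 to 0.15), and kinesin-2 at 0.06 and 0.06, with intervals that held 0 in both libraries. Dynein-2 without Dynlrb1 was at 0.10 (-0.09 to 0.28) and 0.24 (0.06 to 0.41) in thinned cells. The sum over all members was above 0 in thinned cells (0.12 and 0.19) and in cells with low shares of both S and G2/M genes (0.17 and 0.16).

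**Figure D3:**
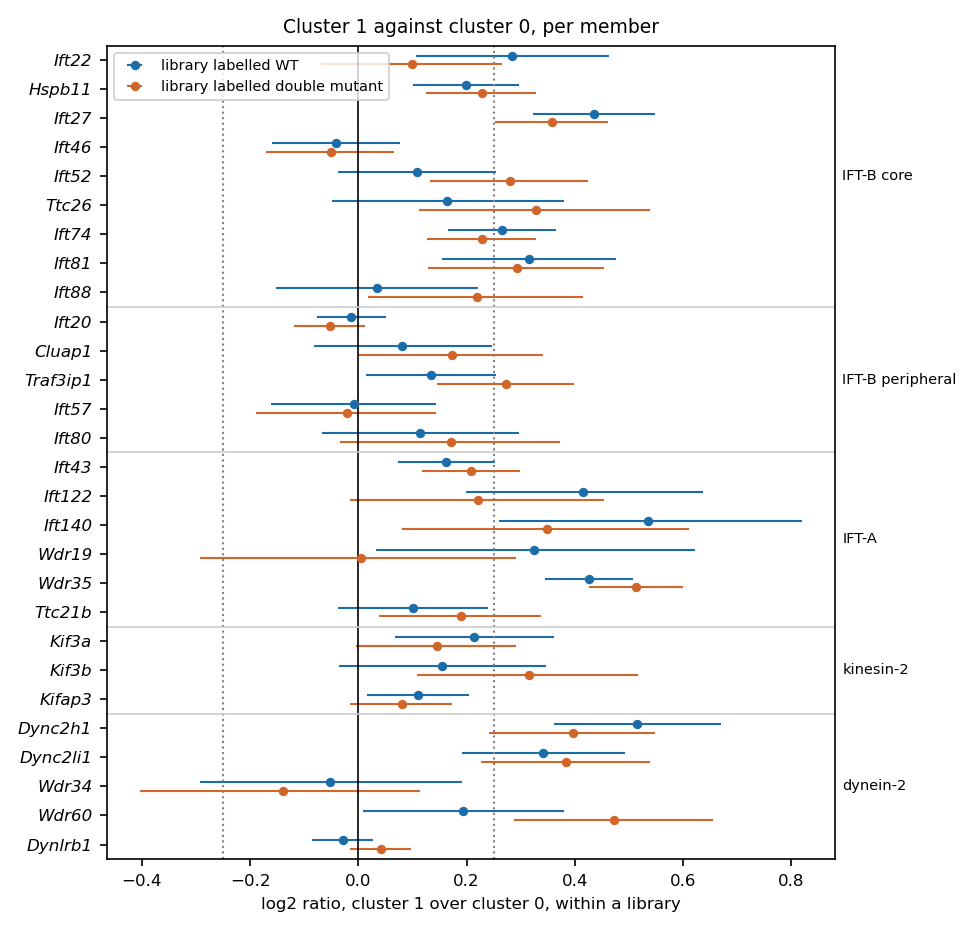
Log2 ratio of cluster 1 over cluster 0 for the 28 members at 5 CPM or more, within the library labelled WT (blue) and within the library labelled double mutant (orange), with exact 95% counting intervals and dotted lines at 0.25 in either direction. Most points lie to the right of 0 in both libraries, 6 genes are past the right-hand line in both, and Ift20 and Dynlrb1 lie close to 0.

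Each cluster with at least 100 cells per library was also set against all other cells of its library, and a gene was called when its log2 ratio was 0.5 or more in size, in the same direction, in both. In cluster 0 the calls were 0 of 28 members against 1.99% of all genes, and in cluster 1 they were 0 against 3.38%. Wdr35 in cluster 1 came closest, at 0.47 and 0.53. Cluster 2, called primitive-streak-like from T and Mixl1 and also led by Foxa2, had 1 call against 3.72% of all genes. It was Wdr35, at 46.0 CPM in the cluster and 68.7 CPM in other cells of the library labelled WT (log2 -0.58, -0.71 to -0.45), and at 37.3 and 55.5 CPM in the library labelled double mutant (log2 -0.57, -0.76 to -0.40). Wdr35 was therefore high in cluster 1, lower in cluster 0 and lowest of these 3 in cluster 2 in both libraries. In cluster 2, 84.9% and 42.4% of cells were low on chromosome 11 and 74.9% and 61.5% on chromosome 6, as described below. The part of this in the level of Wdr35 was not tested.

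Cluster 3, called naive-pluripotent-like from Dppa3 and 7 further markers though it also raised the primed markers Otx2, Pou3f1 and Utf1, had 1 call among the 28 members against 8.25% of all genes. This was Hspb11, at 27.6 CPM against 45.8 in other cells (log2 -0.73, -0.98 to -0.49) and at 19.97 against 43.4 CPM (log2 -1.11, -1.41 to -0.84). A predicted gene on the same strand overlaps Hspb11, and its reads may have been counted with it. In the neural-like cluster 5, led by Pou3f2 and Sox1, 4 of 28 members were called against 12.4% of all genes. Kif3a was at 34.7 against 19.8 CPM (log2 0.82, 0.48 to 1.13) and at 33.8 against 20.5 CPM (log2 0.73, 0.33 to 1.09). Ift52 was at 35.1 against 20.8 CPM (log2 0.76) and at 30.5 against 20.7 CPM (log2 0.57), and Wdr60 had log2 ratios of 0.64 and 0.51, the second with an interval that held 0. Traf3ip1 went the other way, at 18.2 against 30.1 CPM (log2 -0.71) and at 13.9 against 26.7 CPM (log2 -0.92). Kinesin-2 as a sum was at 113.0 against 86.1 CPM and at 104.2 against 86.2 CPM in cluster 5, with log2 ratios of 0.40 (0.21 to 0.57) and 0.28 (0.06 to 0.48). Kif3a is part of this sum, which was not computed without it. Of the 3 kinesin-2 genes at 5 CPM or more, 2 were higher and 1 lower in the library labelled WT, and 3 were higher in the other.

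Cluster 4 differed from clusters 0 to 3 and 5 in quality. It stays unnamed, its cells had median depths of 3669 and 3229 UMIs, and its median mitochondrial share was 0.23%. In it 9 of 28 members were called, against 46.0% of all genes. Dynlrb1 was at 233.3 against 134.7 CPM and at 237.6 against 147.7 CPM, with log2 ratios of 0.79 and 0.69. Dync2h1, whose gene spans 255944 bases, had 4 and 3 UMIs there (log2 -2.51, -4.55 to -1.32, and -2.76, -5.26 to -1.43). Traf3ip1, Ift80, Ift122, Ift140, Wdr19, Wdr35 and Ttc21b were the others, all lower, with between 0 and 42 UMIs in a library. The part of the low depth and the low mitochondrial share in these values was not tested.

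**Figure D4:**
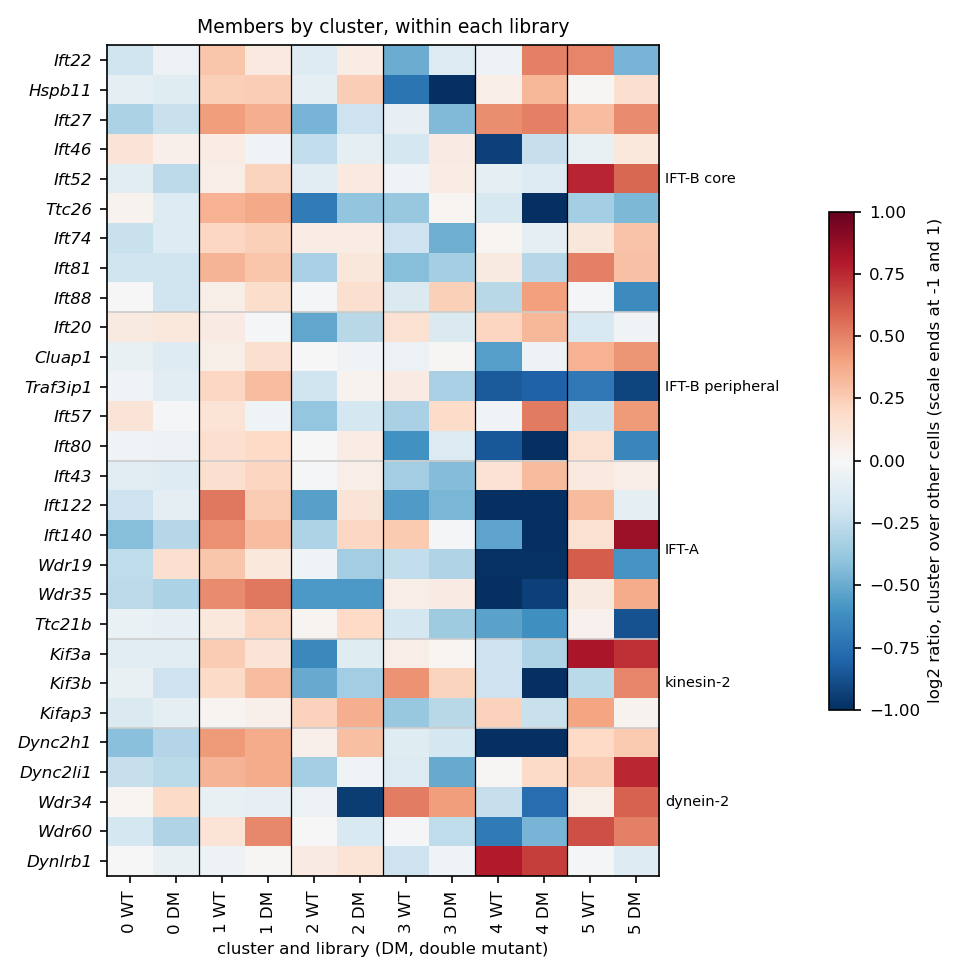
Log2 ratio of each cluster over all other cells of the same library for the 28 members at 5 CPM or more. Columns are clusters 0 to 5, each for the library labelled WT and the library labelled double mutant (DM), and colours end at -1 and 1. Cluster 1 is mostly red and cluster 0 mostly blue in both libraries, and the dark blue cells of cluster 4 rest on few UMIs.

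Members encoded on chromosomes 6 and 11 were also described in cells with few UMIs from those chromosomes. A cell of at least 4000 UMIs was called low when its share of UMIs on chromosome 6 or 11 was at most 0.8 times the median. The genes of that chromosome make up this share, so their lower level in such cells follows from the choice of cells. For chromosome 11 this held for 17.8% of cells in the library labelled WT and 5.87% in the library labelled double mutant, and for chromosome 6 for 21.2% and 18.2%. Ift20, on chromosome 11, was at 67.8 CPM in the low cells and 107.9 in the others (log2 -0.67, -0.77 to -0.58), and at 58.4 and 107.7 CPM in the library labelled double mutant (log2 -0.88, -1.06 to -0.71). Kif3a, on the same chromosome, was at 12.8 and 21.5 CPM (log2 -0.74) and at 12.8 and 21.3 CPM (log2 -0.72). The median over the 797 genes of chromosome 11 was -0.50 and -0.54. Members elsewhere were lower too in these cells: the 26 members on other chromosomes had medians of -0.18 and -0.10, while all genes elsewhere were at 0.05 and 0.05. Ttc26, on chromosome 6, had log2 ratios of -0.90 and -0.50 there.
For chromosome 6, Ttc26, an IFT-B core gene, was at 5.66 and 9.96 CPM (log2 -0.81, -1.12 to -0.52) and at 6.90 and 10.0 CPM (log2 -0.53, -0.83 to -0.25). Ift122, on the same chromosome, had log2 ratios of -0.27 and -0.13, the second with an interval that held 0. The chromosome 11 genes Kif3a and Ift20 were at -0.48 and -0.28 in these cells of the library labelled WT and at 0.02 and 0.04 in the other, and the 26 members elsewhere had medians of -0.08 and 0.02. The cells defined this way were concentrated in cluster 2, where 84.9% and 42.4% were low on chromosome 11 and 74.9% and 61.5% on chromosome 6. A setting without all such cells also left out every cell under 4000 UMIs. In it Wdr35 was at -0.27 and Ift80 at -0.29 between the libraries. Ift122 and Kif3b were also called lower there, where 5.76% of all genes were lower. The cluster 1 over cluster 0 ratio of all members was then 0.16 in each library.

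Across the cell cycle, as many members were called as the share over all genes gives or fewer. Cells were divided at 14 UMIs of S-phase genes and 22 UMIs of G2/M genes per 2500 UMIs, ranges rather than types, since 70.9% and 71.3% of cells lay within 3 UMIs of a limit. With a log2 ratio of 0.25 in both libraries, 0 of 28 members were called in cells low for both sets (2.26% of all genes), 0 in G2/M-rich cells (3.31%), 0 in cells high for both (0.479%) and 1 in S-rich cells (4.42%). The 1 gene was Wdr19, at 4.61 against 5.60 CPM and at 4.62 against 5.63 CPM, and both of its intervals held 0. All members together were at 872.5 and 856.9 CPM in the cells low for both sets and at 872.2 and 860.1 CPM in the G2/M-rich cells.

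At the level of single cells the members were sparse. After thinning to 2500 UMIs a cell held on average 2.17 UMIs of all 33 genes in the library labelled WT and 2.15 in the library labelled double mutant, from a median of 2 different members. No UMI of any member was found in 11.8% (11.1% to 12.5%) and 12.3% (11.7% to 12.9%) of the thinned cells (exact Clopper-Pearson intervals). With all UMIs these shares were 0.345% and 0.416%. The variance over the mean of the members' summed UMIs was 1.02 and 1.03 in thinned cells, where thinning itself draws it toward 1, and 2.48 and 2.18 with all UMIs, where it includes the spread of depth. Dynlrb1 was detected in 29.1% and 31.2% of thinned cells, Ift20 in 21.7% and 22.8%, and Wdr35 in 14.9% and 12.7%.
Near-empty barcodes of 10 to 100 UMIs, which mostly hold free RNA, carried the members at 873.4 and 868.4 CPM, against 865.1 and 856.4 CPM in cells. These levels are shares of UMIs and do not give the amount of free RNA in a cell, which was not measured. The members had 3457 UMIs in 101446 such barcodes of the library labelled WT and 2207 in 89160 of the other. A single UMI in a cell is not read as expression by that cell. Some members differed in level between cells and near-empty barcodes. Wdr35 was at 65.8 CPM in cells and 33.9 in near-empty barcodes (log2 0.95, 0.71 to 1.22) and at 54.2 and 32.7 CPM in the library labelled double mutant (log2 0.72, 0.42 to 1.06), and Dync2h1 was higher in cells by 0.77 and 1.18. Ift43 (log2 -0.72 and -0.36) and Hspb11 (log2 -0.60 and -0.37) were lower in cells than in near-empty barcodes.

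Cells were also divided by whether a UMI of Sp5 remained after thinning, which 22.5% of cells labelled WT and 59.0% of cells labelled double mutant met, a comparison added after the values were seen. With a log2 ratio of 0.25 in both libraries, 0 of 28 members were called, against 2.18% of all genes. All members together were at 866.0 CPM in cells with and 868.8 CPM in cells without an Sp5 UMI in the library labelled WT, and at 864.5 and 849.8 CPM in the library labelled double mutant. Both ratios held 0 within their intervals.

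Among 38 related genes that are no members (other dynein chains, other kinesins, and IFT adaptors and regulators), 25 reached 5 CPM. By a log2 ratio of 0.25, 1 was higher and 3 were lower in the library labelled double mutant, against 3.67% and 5.87% of all genes. The median of the 25 was -0.05. Klc2, a light chain of kinesin-1, was at 7.93 and 9.96 CPM (log2 0.33, 0.19 to 0.47). The dynein light chain genes Dynlt1f, at 13.3 and 10.2 CPM (log2 -0.38), Dynlt3, at 8.99 and 7.37 CPM (log2 -0.28), and Dynlt1a, at 6.01 and 5.02 CPM (log2 -0.26), were the lower ones. The Dynlt1 genes are near-identical copies and their separate counts are uncertain. Of the 9 adaptors and regulators and the 4 dynein-1 genes at 5 CPM or more, none was past the ratio in either direction.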

How the data were processed

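Transcripts of single cells were counted in 2 libraries of 10x 3′ chemistry. The authors deposited raw UMI counts (whole numbers, with no scaling) for every gene in all 6794880 possible barcodes of each library. The labels name Cell Ranger 8.0.1, and the submitters' processing notes list mm10, STARsolo, STAR 2.7.9a and Seurat 5.1.0. Which of them wrote the tables is not given in the sources used here.

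Barcodes with at least 2500 UMIs, at least 1000 genes and at most 10% mitochondrial UMIs were kept. No doublets were removed in the main values; an alternative removed 606 and 897 cells with the highest doublet scores, 0.8% per 1000 cells. Counts were summed per library or cluster and scaled to CPM. Log2 ratios use a pseudocount of 0.5. Members and gene lists were chosen with earlier results of these data known. With 1 library per genotype no test was made. A gene at a mean of at least 5 CPM is called past a log2 ratio of 0.25 (0.5 for clusters against other cells), a size with no error rate. Cells were clustered jointly on all their UMIs, scaled per cell and log-transformed, with leidenalg 0.10.2. This used 2000 variable genes, 30 principal components and 15 neighbours at a resolution of 0.5, with no correction between libraries. A cluster was named when at least 1 marker was among its 10 leading genes and at least 3 markers were raised 1.5-fold; cluster 1 met this for neural markers but is called by its number. Members at 5 CPM or more have their values given, and the others a range. Gene positions are those of GENCODE M21 on GRCm38. The ratio computation was tested on simulated counts. TMM factors came from edgeR 4.0.16. Alternatives covered scaling, the level minimum, cell filters, doublets, thinning, cluster weights, single clusters, chromosome shares, cell cycle ranges and single dominant genes. The precision is that of the counts behind each value, and the intervals leave out variation between cultures.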

Additional observations from a re-analysis of the deposited data

Results flagged for a closer look

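In cluster 3 against the other cells of its library, Ift20 lay on opposite sides of 0 in the libraries. The log2 ratio was 0.154 (0.0294 to 0.274) in the library labelled WT and -0.148 (-0.281 to -0.0206) in the library labelled double mutant. The levels were 112.7 against 101.4 CPM and 95.7 against 106.2 CPM. The difference between the libraries was not tested, and it was picked from 198 pairs of a member and a cluster.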

How the results depend on the processing

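The count of members past the fold between libraries (0 higher, 2 lower) and the summed log2 ratios were recomputed under each alternative. Ift80 and Wdr35 were the 2 lower members also with TMM scaling, minimum levels of 1 and 10 CPM and a UMI minimum of 4000. There, between 4.31% and 8.89% of all genes were lower. The lower count became 4 with doublets removed, without cells low on chromosome 6 or 11 or under 4000 UMIs, and in cells low for both cell cycle sets. Of all genes, 6.32%, 5.76% and 10.2% were lower in these settings. With equal cluster shares the lower count became 1 (with 1 higher), against 4.07% lower and 2.89% higher of all genes. Within single clusters the higher and lower counts were 3 and 1 (cluster 0), 0 and 1 (cluster 1), 9 and 2 (cluster 2), 5 and 8 (cluster 3), 5 and 7 (cluster 4), and 9 and 9 (cluster 5). Of all genes, 3.56% and 4.5% were called in cluster 0, and 4.5% and 5.77% in cluster 1. The shares were 13.6% and 15.2% in cluster 2 and 11.4% and 16.7% in cluster 3. They were 22.6% and 26.4% in cluster 4, and 17.7% and 23.0% in cluster 5. After thinning, Ift122, Ttc21b and Wdr34 were called lower, against 8.59% of all genes, and Ift80 and Wdr35 were not called. The cause was not tested.

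IFT-B moved to 0.029 with TMM, 0.0203 thinned, 0.0216 with equal shares, -0.0323 without the low-chromosome cells, and 0.166, -0.0787, 0.178 and 0.038 in clusters 2 to 5. IFT-A was below 0 in all of these settings and moved to -0.10 with equal shares, -0.11, -0.0851, -0.0477, -0.217 and -0.0611 in clusters 0 to 4, and -0.0765 without Wdr35. Kinesin-2 moved to 0.181, -0.422 and -0.116 in clusters 2, 4 and 5 and to -0.0506 in cells low for both cell cycle sets. Dynein-2 moved to 0.0867 with TMM and to 0.107, 0.116, 0.117 and 0.0117 in clusters 1 to 4, and it reversed to -0.12 without Dynlrb1. Ift80 reversed to 0.162 in cluster 3. Of the single members' ratios, 389 stayed within the main interval, 138 moved out of it and 1 reversed, counting as reversed only a change of sign of Ift80 or Wdr35. Of these 528 ratios 93 had another sign than the main one, 67 of them in single clusters.

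Calls by cluster went from 15 (8.93% of member and cluster pairs, against 12.6% over all genes) to 41 (24.4% against 25.4%) at a log2 ratio of 0.25, and those by cell cycle range from 1 to 0 with tertiles. At a resolution of 1.0, which numbers clusters anew, Wdr35 was called higher in clusters 4 (1.67% of all genes) and 5 (1.88%). It was lower in cluster 9 (1.93%), and Ift20 was lower in cluster 6 (3.74%). In cluster 3 of that setting, led by Meis2, Irx3 and Gbx2, 0 of 28 members were called higher (1.54%). Clusters 8, 10 and 11 held the other calls. The sum over cluster 1 against cluster 0 moved to 0.12 and 0.192 when thinned. No paired analysis was possible because each genotype has 1 library. Depth limits the members under 5 CPM, cluster 4 and single cells.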
